A study of Mus musculus with 15 samples.

Results

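The protein components of the cytosolic ribosome were followed at the mRNA level by RNA sequencing of E0771 cells, a line from a mouse mammary carcinoma. Genes were taken by symbol, as Rpl or Rps followed by a number or by the stalk letters p0 to p2, without pseudogenes marked -ps, and with a mean of at least 5 CPM (counts scaled to 1e6 per library) over the libraries. Of 55571 gene rows, 89 had such a symbol and 76 passed the level, 44 of the large subunit and 32 of the small subunit. Of the 76, 75 are annotated as protein coding. Membership rests on the symbol, and that annotation does not show that a product is part of the ribosome. The other one, Rps3a2, is annotated as a processed pseudogene and had the lowest level of the family. All 76 members also passed the filter on low counts used for testing.

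The cells carried a form of Malt1 or an empty vector. MALT1, a paracaspase, serves NF-kB signalling as a scaffold and cuts other proteins as a protease. The groups were the wild type (Malt1_WT), a mutant called PD in the labels (Malt1_PD), the substitutions V87R and L88D in the N-terminal death domain (Malt1_V87R and Malt1_L88D), and the empty vector (Vector), with 3 libraries each and no co-cultured T cells. The Malt1_PD values came from columns named for a cysteine substitution, assigned by elimination since every other form had columns of its own name. Whether the replicates were grown apart, whether each line is a pool or a clone and which promoter drives the construct are not in the labels. The p-values therefore cover only the spread among the sequenced libraries, and that spread may be technical.

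Each ribosome is built from ribosomal RNA and one copy of most of these proteins, so their genes are usually expressed together and at high level. Their mRNAs are the classical TOP mRNAs: they begin with a C and a run of pyrimidines, through which mTORC1 signalling and the RNA-binding protein LARP1 set their translation and stability. The large subunit joins amino acids and carries the stalk that recruits translation factors, and the small subunit reads the codons. Outside the ribosome, free RPL5 and RPL11 bind the p53 inhibitor MDM2.

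Library totals ran from 15471746 to 21458457 counts. Malt1 itself averaged 202 ± 7.97 CPM with Malt1_WT, 250 ± 8.88 CPM with Malt1_PD, 280 ± 1.31 CPM with Malt1_V87R and 252 ± 6.75 CPM with Malt1_L88D, against 28.2 ± 1.92 CPM with Vector (SD, n = 3 each). The Vector level is that of the endogenous gene, and in the other groups the counts do not separate it from the construct. Of 6 epithelial markers, Krt8 and Epcam were detected at 89.7 to 117 CPM and 5.67 to 9.75 CPM as group means, while Krt18, Krt19, Cdh1 and Cldn7 stayed below 1 CPM. The summed level of 6 T and NK cell markers was at most 0.749 CPM in any library, with Nkg7 and Ncr1 at 0. Over all libraries 5 fibroblast markers summed to 292 to 357 CPM and 4 endothelial markers to 10.47 to 15.47 CPM. The 12 macrophage and dendritic markers summed to 57.5 to 65.8 CPM with Malt1_WT, 63.9 to 67.7 CPM with Malt1_PD, 26.2 to 30.5 CPM with Malt1_V87R and 30.9 to 52.3 CPM with Malt1_L88D, against 28.4 to 30.7 CPM with Vector. The largest of these in Malt1_WT were Cd68 (25.2 CPM) and Cd14 (23.5 CPM), against 12.1 and 8.04 CPM with Vector. Ptprc, Itgam, Tyrobp, C1qa, C1qb and C1qc had group means below 1 CPM in every group. Lyz2 averaged 4.64 CPM with Malt1_WT, 14.4 CPM with Malt1_PD, 13.8 CPM with Malt1_L88D and 5.66 CPM with Vector. The part of these markers in the results below was not tested. No 2 replicates were alike within sampling noise, with chi-square per degree of freedom from 1.9 to 8.24.

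The members differed widely in level. Rps2, a small subunit protein near the mRNA entry channel, led with a mean of 2584 CPM over the 15 libraries, followed by the large subunit proteins Rpl4 (1839 CPM), Rplp0 (1782 CPM) and Rpl13 (1734 CPM). These 4 genes held 15% of the family's counts. The median member had 594.5 CPM, 15 members were above 1000 CPM and 4 were under 100 CPM. Divided by the length of 1 annotated transcript, Rps2 (2362 CPM per kb) and Rpl13 (2224 CPM per kb) were highest, against a median of 720.7 CPM per kb.

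The 4 low members were Rps3a2 (6.57 CPM), Rps10 (10.4 CPM), Rpl22l1 (18.1 CPM) and Rpl13a (57.3 CPM). The nearest row outside the threshold was Rps3a3, with 2.55 CPM. Reads can be lost where rows overlap: 20.6% of the exon bases of Rps10 are shared with RPS10-NUDT3 and 35.4% of those of Rpl13a with Gm45713 and small RNA genes. Rpl24, with 47.0% of its exon bases shared, had 1.44 CPM and Rpl36al, with 24.5%, had 1.81 CPM, so both were left out by the rule. The levels of these 4 overlapping genes are therefore uncertain.

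All 3 candidates on chromosome 1 were nearly uncounted. Over the 15 libraries together Rpl7 had 10 counts, Rpl31 had 4 and Rpl37a had 1, although each encodes a core large subunit protein. Rows for near-identical copies elsewhere were well counted, with 253.7 CPM for Rpl31-ps8 and 67.6 CPM for Rpl7-ps7. Where the reads of the chromosome 1 genes went was not tested, and reads of any member with close pseudogene copies may be split among rows.

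The annotated starts of some named members are shown because the pyrimidine run at the first base defines a TOP mRNA. Of 20 named members in the table, 10 had such a run and 10 had none, and 6 of each kind are printed. Sequences are from RefSeq on GRCm38.p6, 5′ to 3′ on the gene's strand, 15 bases before the start and 15 from the start onward, with a C and at least 4 following pyrimidines in capitals where such a run begins within 5 bases of the start. Rpl22 is shown at the first of its 2 annotated starts, neither of which has a run. Rps27l has another annotated start, which has no run. At the starts shown, the first 6 genes have the run and the others do not.
Rps6, chr4:86857353-86857382, minus strand: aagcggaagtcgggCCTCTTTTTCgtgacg
Rps2, chr17:24720048-24720077, plus strand: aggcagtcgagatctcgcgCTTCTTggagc
Rps26, chr10:128626492-128626521, minus strand: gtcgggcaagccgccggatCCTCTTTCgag
Rps27l, chr9:66946071-66946100, plus strand: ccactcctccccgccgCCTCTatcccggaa
Rpl13a, chr7:45128731-45128760, minus strand: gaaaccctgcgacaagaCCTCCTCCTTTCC
Rpl22l1, chr3:28805493-28805522, plus strand: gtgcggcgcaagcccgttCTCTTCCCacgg
Rps15, chr10:80292416-80292445, plus strand: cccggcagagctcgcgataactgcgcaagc
Rps3, chr7:99483695-99483724, minus strand: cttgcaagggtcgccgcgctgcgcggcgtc
Rpl5, chr5:107900513-107900542, plus strand: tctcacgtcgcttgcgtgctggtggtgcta
Rpl11, chr4:136053379-136053408, minus strand: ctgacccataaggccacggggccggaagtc
Rpl22, chr4:152324421-152324450, plus strand: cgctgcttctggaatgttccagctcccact
Rpl36a, chrX:134585639-134585668, plus strand: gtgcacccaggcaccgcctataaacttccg

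Of the 56 members found in the RefSeq promoter table, 28 had such a run, against 5718 of 27025 genes in the table (21.2%). Where none is marked, these letters are not at the annotated start used here. Over 300 bases around the start and on both strands, CCGGAA was present in 32 of the 56 members (57.1%) and in 16.7% of all genes, CACGTG in 6 (10.7%) and in 8.1%, and TATAAA in 7 (12.5%) and in 15.7%. Members with and without the pyrimidine run had similar median log2 fold changes in Malt1_WT against Vector, -0.22 for each set of 28 genes. Against Vector the medians with and without it were -0.021 and -0.048 in Malt1_PD, -0.053 and -0.080 in Malt1_V87R, and -0.103 and -0.115 in Malt1_L88D. The split follows the annotated start, so it cannot show whether the transcripts in these cells begin with a run.

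The family as a whole was lowest in Malt1_WT. Its summed level was 49939, 47080 and 47942 CPM in the Malt1_WT libraries, 58132, 49787 and 55548 CPM in Malt1_PD, 52175, 52514 and 56007 CPM in Malt1_V87R, 52295, 52145 and 51298 CPM in Malt1_L88D, and 59045, 53369 and 56130 CPM in Vector. All Malt1_WT libraries but the first lay below every other library, and the first lay above the second Malt1_PD library only. Relative to Vector the mean sum differed by -14% in Malt1_WT and by -7.6% in Malt1_L88D, in both cases without overlap between the libraries. It differed by -3.01% in Malt1_PD and by -4.66% in Malt1_V87R, with overlapping libraries in both cases. In bulk RNA, less mRNA per cell and fewer cells with much of it cannot be told apart. CPM gives shares of the sequenced mRNA, so a fall of the family is relative to all other genes.

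Gene by gene, the mean was lowest in Malt1_WT for 72 of the 76 members and highest in Vector for 54, in Malt1_PD for 17, in Malt1_V87R for 4 and in Malt1_WT for 1, Rpl22l1. The members moved together, so these counts are not independent, and the same counts over all genes were not made. The share of all counts that fell on the family ran from 4.646% to 5.988% over the libraries.

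**Figure D1:**
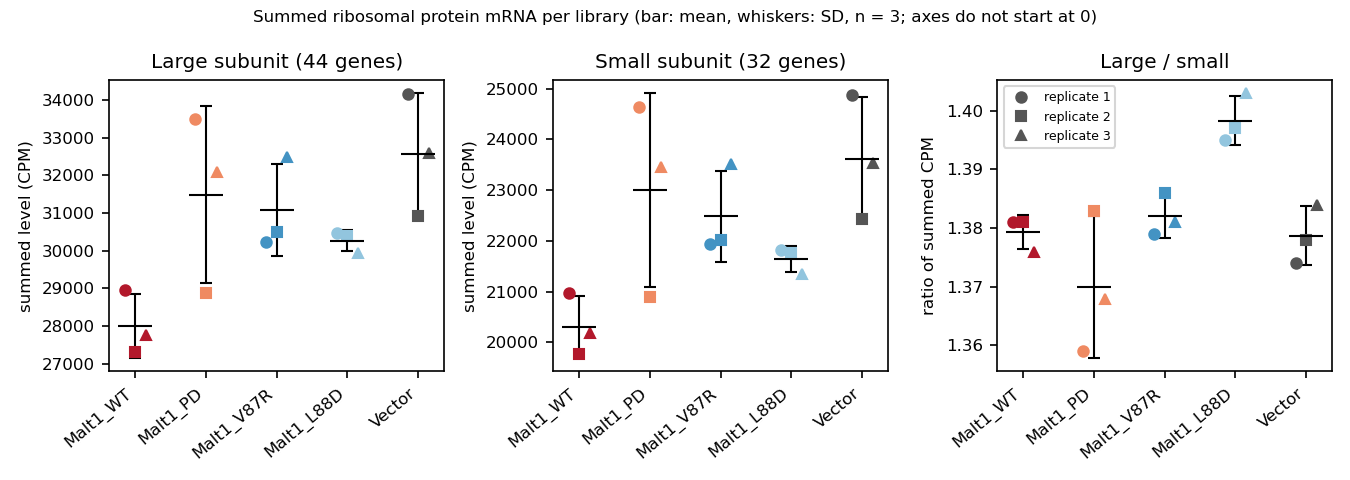
Summed CPM of the 44 large and 32 small subunit genes and their ratio, per library (points), with group means (bars) and SD (whiskers, n = 3); the vertical axes do not start at 0. Large subunit sums were 27308 to 28962 CPM in Malt1_WT and 30927 to 34171 CPM in Vector, and the ratio was highest in Malt1_L88D.

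Large and small subunit genes moved together. The large subunit genes summed to 28010 ± 854 CPM in Malt1_WT and 32560 ± 1620 CPM in Vector, and the small subunit genes to 20310 ± 613 CPM in Malt1_WT and 23620 ± 1220 CPM in Vector (SD, n = 3 each). The ratio of the sums was 1.381, 1.381 and 1.376 in Malt1_WT, 1.359, 1.383 and 1.368 in Malt1_PD, 1.379, 1.386 and 1.381 in Malt1_V87R, 1.395, 1.397 and 1.403 in Malt1_L88D, and 1.374, 1.378 and 1.384 in Vector. Only the Malt1_L88D libraries stood apart, all above the other 12. Without the 4 most abundant members the mean ratio was 1.303 in Malt1_L88D and between 1.286 and 1.29 in the other groups. These sums are descriptions and were not tested.

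Replicates of one group differed for the whole family at once. Ranks within a group were counted for the members only, not over all genes. The second Malt1_PD library was the lowest of its group for all 76 members, and the first was the highest for 73. In Vector, the first library was highest for 72 members and the second lowest for 72. The third Malt1_V87R library was the highest of its group for 74 members, the first Malt1_WT library for 67, and the third Malt1_L88D library was the lowest for 53. Measured as the mean log2 deviation of the members from their own 15-library means, the libraries ran from -0.17 in the second Malt1_WT library to 0.17 in the first Vector library. Within Malt1_PD this measure was 0.15, -0.09 and 0.08, on both sides of the members' 15-library means.

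**Figure D2:**
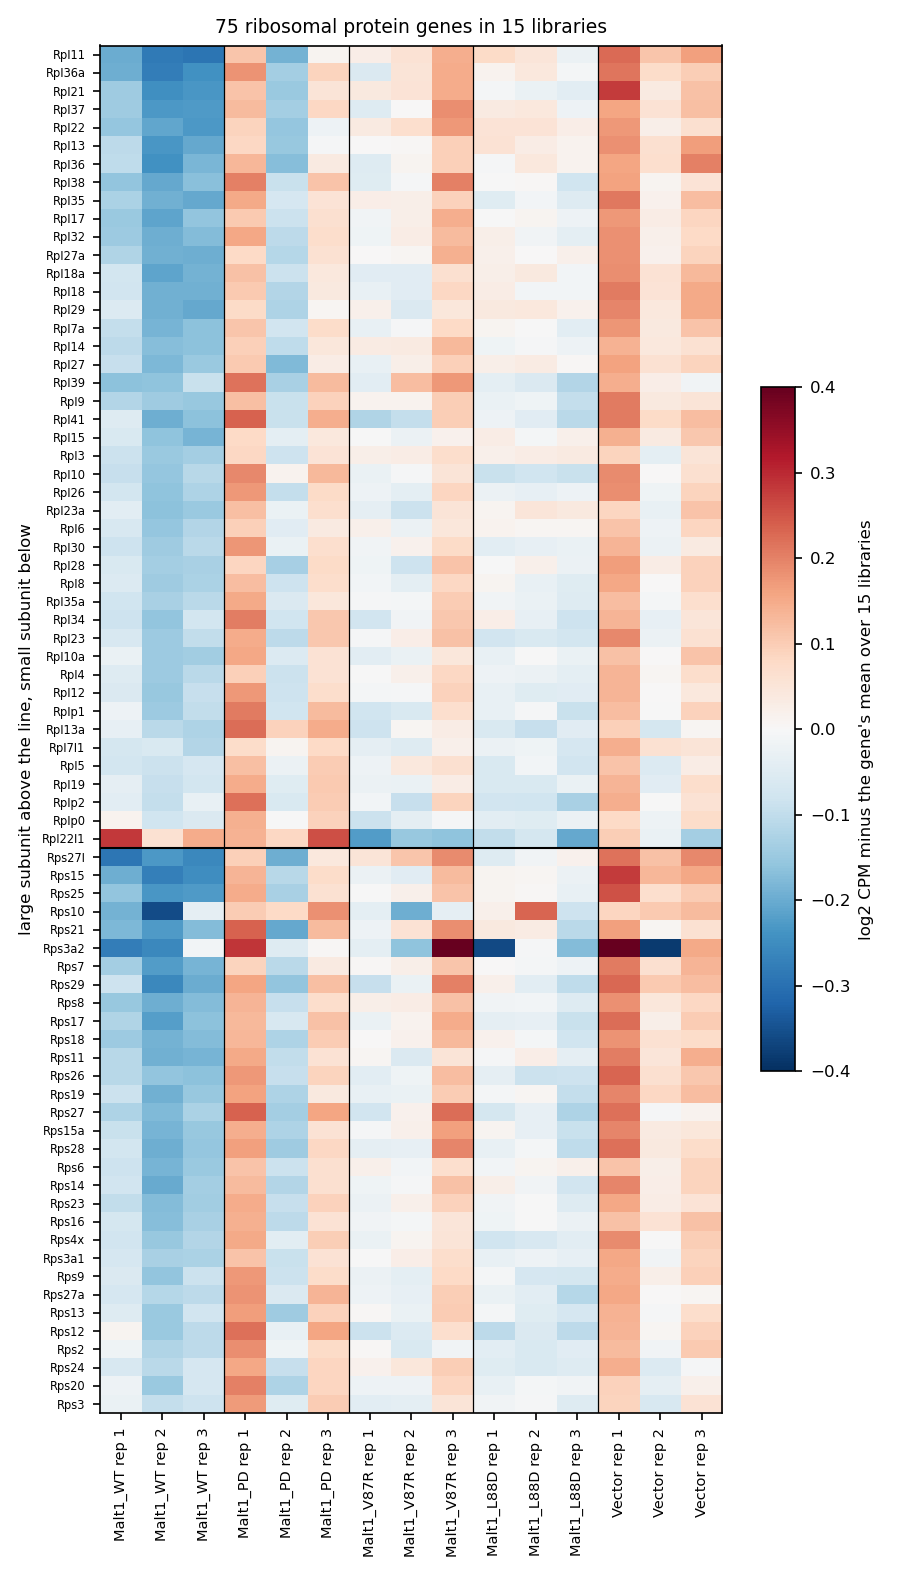
Log2 CPM of 75 of the 76 members, each minus its mean over the 15 libraries (columns; colours end at ±0.4, which Rps3a2 exceeds), with large subunit genes above the line and small subunit genes below. Group means are lowest in Malt1_WT for 72 of 76 members, and the second Malt1_PD column is low for 76 of 76 within its group; Rpl22l1 runs against the rest.

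As a description over the 15 libraries, which share groups and scaling, the median Pearson correlation between members was 0.88, and it was 0.90 for deviations from the group means. One principal component held 80.6% of the members' variance. Of the 76 members, 71 correlated above 0.8 with the mean of the others (median 0.94). The exceptions were Rpl22l1 (-0.08), Rps10 (0.58), Rpl13a (0.69), Rps3a2 (0.70) and Rplp0 (0.76). Apart from Rplp0, these were the 4 members of lowest level.

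Other quantities were set beside this common movement. The summed level of 83 rows of mitochondrial ribosomal proteins, which are encoded in the nucleus but build another ribosome, ordered the 3 replicates as the cytosolic family did in all 5 groups. The summed level of 19 other TOP mRNAs did so in 3 groups, that of ribosome biogenesis genes in 3, the library total in 2 and the scaling factor in 1. Their part in the replicate differences was not tested.

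**Figure D3:**
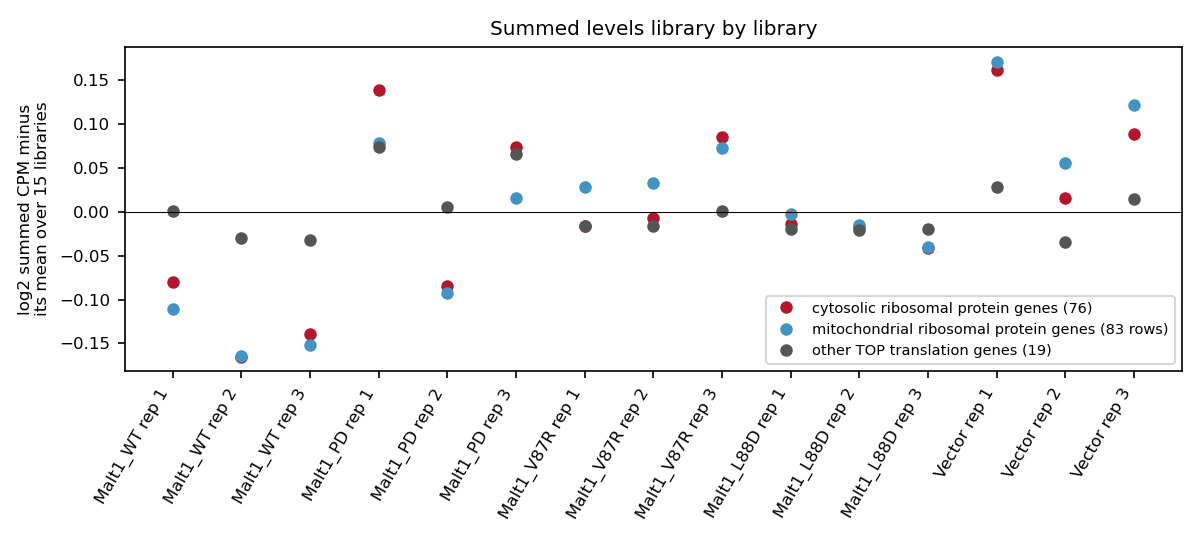
Log2 summed CPM minus its mean over the 15 libraries, for the 76 cytosolic ribosomal protein genes, 83 rows of mitochondrial ribosomal protein genes and 19 other TOP translation genes (points, 1 per library). The cytosolic and mitochondrial sums take the same order of replicates in 5 of 5 groups, and both are low in Malt1_WT.

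In Malt1_WT against Vector, most members fell and none rose. Of the 76 members, 66 were lower at an adjusted p under 0.05 (edgeR quasi-likelihood test, Benjamini-Hochberg over 14571 genes) and 0 were higher, while 27.7% of all genes tested were lower and 27.2% were higher. With an unadjusted p under 0.05 the count was 73 in either direction, where 59.1% of all genes passed, and with DESeq2 none was higher either. The calls were 40 of 44 large subunit and 26 of 32 small subunit genes. The median log2 fold change was -0.23 over the members and -0.01 over all genes. In 67 members every Malt1_WT library was below every Vector library, as in 30.2% of all genes. The count of lower members was 51 to 70 when any 1 library was left out, and that of all genes 3459 to 3802.

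The 3 largest falls were in Rps27l, Rps15 and Rpl11. Rps27l, a paralogue of Rps27 that is a p53 target in human cells, had 84.45, 87.99 and 86.25 CPM in Malt1_WT, against 119.8, 111.7 and 117.7 CPM in Vector. The groups were far apart relative to their spread, with a log2 fold change of -0.43 ± 0.06 (SE; edgeR adjusted p = 1.6e-07). Rps15, a small subunit protein of the head that is needed for export of the subunit from the nucleus, had 637.1, 604.3 and 614.1 CPM in Malt1_WT, against 885.8, 800.8 and 813.6 CPM in Vector. Its log2 fold change was -0.43 ± 0.06 (edgeR adjusted p = 1.4e-06), again without overlap.

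Rpl11 and Rpl5 join 5S rRNA in the particle that binds MDM2. Rpl11 had 475.1, 447.5 and 445.2 CPM in Malt1_WT, against 637.5, 588.7 and 610.3 CPM in Vector, with a log2 fold change of -0.43 ± 0.06 (edgeR adjusted p = 4.1e-06). Rpl5 had 962.2, 953 and 966.8 CPM in Malt1_WT, against 1095, 974.3 and 1034 CPM in Vector, and fell by only 0.11 ± 0.04 on the log2 scale (edgeR adjusted p = 0.028). Both pass the test without overlap between the groups, and the fall of Rpl11 was the larger one. Mdm2 itself was 351 ± 6.08 CPM in Malt1_WT and 160 ± 3.2 CPM in Vector, a log2 fold change of 1.14 ± 0.04 (edgeR adjusted p = 9e-21).

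Among the other members with roles outside the ribosome, Rps6, a substrate of S6 kinase, fell by 0.22 ± 0.04 (edgeR adjusted p = 7.5e-05), and Rps27a, which is made as a fusion with ubiquitin, by 0.15 ± 0.05 (edgeR adjusted p = 0.021). Rps3, which also takes part in DNA repair and NF-kB binding, had a log2 fold change of -0.10 ± 0.05 and was not called (edgeR adjusted p = 0.076). Rpl13a, which silences inflammatory mRNAs in human myeloid cells, had -0.10 ± 0.05 (edgeR adjusted p = 0.12). Of the 4 most abundant members, Rps2 fell by 0.15 ± 0.04 (edgeR adjusted p = 0.0035) and Rpl4 by 0.17 ± 0.04 (edgeR adjusted p = 0.00066), both less than the member median, and Rpl13 by 0.32 ± 0.05 (edgeR adjusted p = 6.4e-06), more than it.

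Of the stalk, 1 of 3 genes was called. Rplp0, the stalk base, had 1798, 1684 and 1710 CPM in Malt1_WT, against 1882, 1754 and 1875 CPM in Vector, groups that overlap, with a log2 fold change of -0.09 ± 0.04 (edgeR adjusted p = 0.056). Rplp1 fell by 0.16 ± 0.06 (edgeR adjusted p = 0.034) and Rplp2 had -0.13 ± 0.06 (edgeR adjusted p = 0.072). Other members not called included Rps3, Rpl13a, Rpl22l1, Rps20, Rps24, Rps27 and Rps3a2, of which Rps20, Rps24 and Rps3a2 are named after their values were seen. Rps3a2, the pseudogene row, had the most negative estimate, -0.48 ± 0.25 (edgeR adjusted p = 0.13), on about 5 to 11 CPM.

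**Figure D4:**
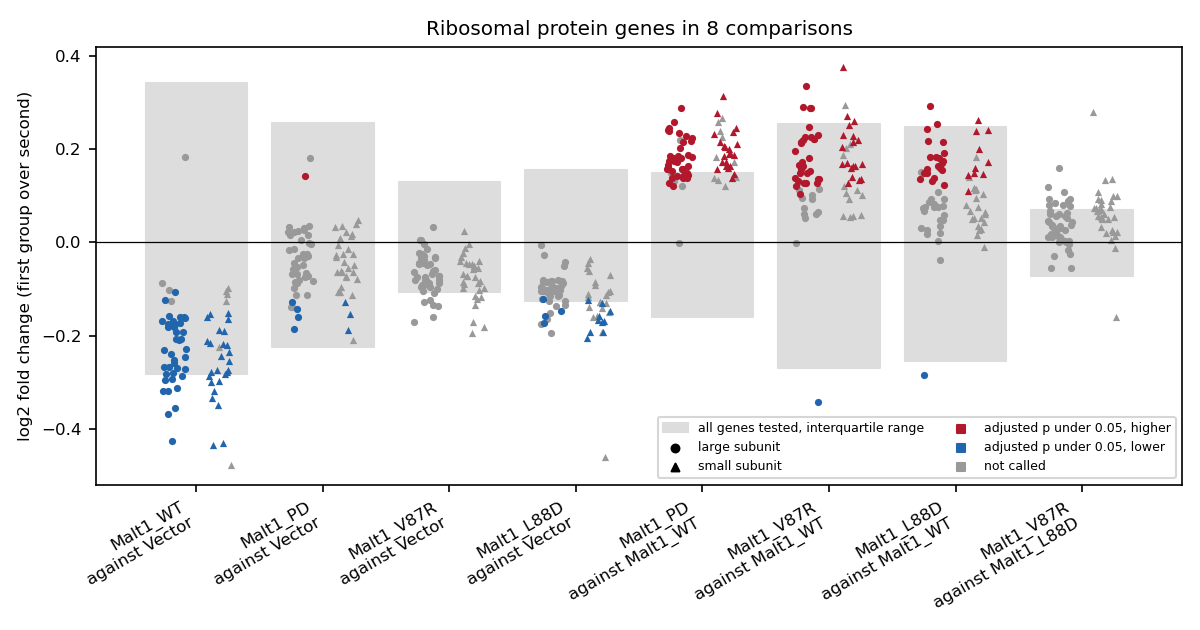
Log2 fold change of each member in 8 comparisons (circles, large subunit; triangles, small subunit; colour, the edgeR call at an adjusted p of 0.05), with the interquartile range of all 14571 genes in grey. In Malt1_WT against Vector 66 of 76 points are called lower, and in Malt1_PD against Malt1_WT 60 are called higher. Comparisons that share a group are not independent.

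Genes of related function were set beside the family in the same comparison. Among ribosomal proteins outside the name pattern, Rack1 and Rpsa were lower: Rack1, a scaffold on the small subunit, was 1130 ± 43.1 CPM in Malt1_WT and 1240 ± 47.7 CPM in Vector (log2 fold change -0.14 ± 0.04, edgeR adjusted p = 0.004), and Rpsa had -0.14 ± 0.04 (edgeR adjusted p = 0.0085). Fau, which encodes a ribosomal protein fused to a ubiquitin-like protein, was not called (-0.09 ± 0.05, edgeR adjusted p = 0.15). Of 73 mitochondrial ribosomal protein genes tested, 51 were lower and 4 higher, with a median log2 fold change of -0.23, close to that of the cytosolic family. Mrps6 fell most clearly, with 19.3 ± 0.266 CPM in Malt1_WT and 43.7 ± 3.41 CPM in Vector (log2 fold change -1.18 ± 0.08, edgeR adjusted p = 1e-13).

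Of 19 other TOP translation genes, 11 were lower and 1 higher, with a median log2 fold change of -0.19. Hnrnpa1, an RNA-binding protein, was 931 ± 8.98 CPM in Malt1_WT and 1190 ± 4.79 CPM in Vector (-0.35 ± 0.03, edgeR adjusted p = 6.1e-11). Pabpc1, the poly(A)-binding protein, was the higher one, with 3750 ± 23.3 CPM in Malt1_WT and 2950 ± 64.9 CPM in Vector (0.35 ± 0.03, edgeR adjusted p = 5.8e-11). The TOP list is therefore not uniform.

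Of 34 ribosome biogenesis genes tested, 18 were lower and 2 higher (median log2 fold change -0.14). Ubtf, which activates RNA polymerase I on ribosomal DNA, was 255 ± 7.21 CPM in Malt1_WT and 349 ± 9.51 CPM in Vector (-0.45 ± 0.04, edgeR adjusted p = 7.3e-11). Nolc1, a nucleolar assembly factor, was 264 ± 11.8 CPM in Malt1_WT and 342 ± 8.52 CPM in Vector (-0.37 ± 0.04, edgeR adjusted p = 8.9e-09). Of 5 snoRNA host genes tested, 1 was higher, Snhg8 (0.26 ± 0.10, edgeR adjusted p = 0.028), and of 9 genes linking the family to mTORC1 or p53, 3 were higher and 4 lower.

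Transcript length was set beside the result. Protein-coding genes outside the family with an annotated transcript under 1000 bases also leaned down in Malt1_WT against Vector. Of 664, 292 were lower and 107 higher, with a median log2 fold change of -0.18. Against Vector their median was -0.074 in Malt1_PD, -0.057 in Malt1_V87R and -0.099 in Malt1_L88D (members -0.046, -0.072 and -0.111). Against Malt1_WT it was 0.135 in Malt1_PD, 0.143 in Malt1_V87R and 0.097 in Malt1_L88D (members 0.179, 0.155 and 0.108). In Malt1_V87R against Malt1_L88D it was 0.043 (members 0.052). The members had a median transcript length of 869 bases, and across the 76 members Spearman's rho between length and log2 fold change was 0.25 in Malt1_WT against Vector and -0.41 in Malt1_PD against Malt1_WT, given as descriptions over genes that share libraries. In the other comparisons rho ran from -0.18 (Malt1_V87R against Malt1_WT) to 0.33 (Malt1_L88D against Vector), with 0.05 in Malt1_PD against Vector. The part of length in the family's fall, and in its shifts in the other comparisons, was not tested.

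Malt1_PD differed little from Vector in this family. Of 76 members, 7 were lower and 1 was higher, below the 22% of all genes called lower and the 22.8% called higher, and the median log2 fold change was -0.05. The member that was higher was Rpl13a, with 66.8, 61.0 and 63.4 CPM in Malt1_PD and 61.1, 54.5 and 57.4 CPM in Vector (0.14 ± 0.05, edgeR adjusted p = 0.031). The libraries of the 2 groups overlap for it by a narrow margin. The largest falls were in Rps27l (-0.19 ± 0.06, edgeR adjusted p = 0.006), Rpl11 (-0.18 ± 0.06, edgeR adjusted p = 0.013) and Rpl13 (-0.16 ± 0.05, edgeR adjusted p = 0.0089). Rps27l had 110.2, 90.1 and 106.1 CPM in Malt1_PD, all below the 3 Vector libraries given above.

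These counts depended on single libraries. The median turned positive without the second Malt1_PD library (0.020, with 50 estimates above 0) and without the first Vector library (0.0060, with 43 above 0). It was -0.08 without the first Malt1_PD library or the second Vector library. The number of lower members was 16 without the first Malt1_PD library and 0 without the second. It was 1, 13 and 2 without Vector replicate 1, 2 and 3. In the same fits 2908, 2901, 2803, 2957 and 2728 of all genes were lower. The number of higher members was 0 without the first Malt1_PD library and 7 without the second. It was 2 without the first Vector library and 0 without the second or the third. Of all genes 3311, 3307, 3176, 3271 and 3104 were higher there. Of related genes, 5 of 34 biogenesis genes were higher and 6 lower, 3 of 19 TOP translation genes were higher and 6 lower, and 6 of 73 mitochondrial ribosomal proteins were higher and 26 lower. Myc, which drives ribosome biogenesis genes, was among the higher ones, with 837 ± 19.9 CPM in Malt1_PD and 663 ± 14.5 CPM in Vector (0.33 ± 0.03, edgeR adjusted p = 3.3e-09).

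Malt1_V87R gave no call against Vector. Of 76 members, 0 were higher and 0 lower by edgeR, where 7.01% of all genes were higher and 4.7% lower, and 13 members had an unadjusted p under 0.05, where 23.9% of all genes had one. DESeq2 called 1 lower and limma-voom 0. The median log2 fold change was -0.07 and 72 of 76 estimates were negative. The median was -0.025, with 56 negative estimates, without the first Vector library, -0.048 without the first Malt1_V87R library and -0.11 without the second Vector library. Rps27l had 106.9, 111.2 and 117.6 CPM in Malt1_V87R, overlapping the Vector libraries (-0.06 ± 0.05, edgeR adjusted p = 0.57). The count of lower members was 11 without the second Vector library and 5 without the third Malt1_V87R library. In the same fits 823 and 576 of all genes were lower. Of related genes, 5 of 34 biogenesis genes were lower, 1 of 19 TOP translation genes was lower, and 8 of 73 mitochondrial ribosomal proteins were lower and 1 higher.

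Malt1_L88D had 14 lower members and 0 higher against Vector, 10 of them in the small subunit, where 8.43% of all genes were lower and 8.96% higher. At an unadjusted p under 0.05 43 members passed, where 29.9% of all genes did. All 76 estimates were negative, with a median of -0.11, and for 57 members every Malt1_L88D library was below every Vector library, as in 18.3% of all genes. The largest falls were in Rps26, a small subunit protein at the mRNA exit site, with 726.5, 700.7 and 702.4 CPM in Malt1_L88D against 874.1, 778.6 and 801.4 CPM in Vector (-0.20 ± 0.06, edgeR adjusted p = 0.02), in Rps27l (-0.19 ± 0.06, edgeR adjusted p = 0.015) and in Rps15 (-0.19 ± 0.05, edgeR adjusted p = 0.02). For Rps26 the 2 groups do not overlap. The count of lower members was 4, 1 and 3 without Malt1_L88D replicate 1, 2 and 3, with 848, 711 and 702 of all genes. It was 0, 33 and 2 without Vector replicate 1, 2 and 3, with 573, 1344 and 684 of all genes. The count therefore rests on few libraries. The median was -0.069 without the first Vector library. Of the biogenesis genes 15 of 34 were lower, of the TOP translation genes 2 of 19 were lower and 1 higher, and of the mitochondrial ribosomal proteins 19 of 73 were lower and 1 higher.

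Each mutant was also set against the wild type, which shares its libraries with the comparison of Malt1_WT with Vector. In Malt1_PD against Malt1_WT 60 of 76 members rose and 0 fell by edgeR (38 large and 22 small subunit genes rose; 74 members had an unadjusted p under 0.05, against 33.8% of all genes), where 12.6% of all genes were higher and 10.7% lower. The median log2 fold change was 0.18 over the members and 0.01 over all genes. With upper-quartile scaling 1365 genes were higher and 1766 lower over the whole table, against 1834 and 1565 with TMM scaling, and 40 members were still higher. In 36 members the libraries did not overlap, as in 17.8% of all genes, since the second Malt1_PD library lay near the Malt1_WT level. Without that library 74 members and 2085 of all genes were higher. The count of members was 17 without the first Malt1_PD library and 25 without the third, and 24 and 29 without Malt1_WT replicate 2 and 3. In the same fits 1107, 1177, 1159 and 1207 of all genes were higher.

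The largest rises were in Rps10 (0.31 ± 0.11, edgeR adjusted p = 0.033), a small subunit protein of low count here, Rpl36a (0.29 ± 0.07, edgeR adjusted p = 0.0046) and Rps15 (0.28 ± 0.06, edgeR adjusted p = 0.001). Rpl36a, a large subunit protein near the exit site for transfer RNA, had 403.3, 324.2 and 378.7 CPM in Malt1_PD, against 311, 294.2 and 300.8 CPM in Malt1_WT. All its Malt1_PD libraries were above the Malt1_WT libraries. Of related genes, 19 of 34 biogenesis genes were higher and 1 lower, led by Myc (0.28 ± 0.03, edgeR adjusted p = 5e-07) and Ubtf (0.29 ± 0.04, edgeR adjusted p = 1.9e-06), and 25 of 73 mitochondrial ribosomal proteins and 5 of 19 TOP translation genes were higher.

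In Malt1_V87R against Malt1_WT 50 members rose and 1 fell (31 large and 19 small subunit genes rose), where 24.9% of all genes were higher and 23.4% lower, with a member median of 0.16. The largest rises were in Rps27l (0.38 ± 0.06, edgeR adjusted p = 2.2e-06), Rpl11 (0.33 ± 0.06, edgeR adjusted p = 8.3e-05) and Rpl22 (0.29 ± 0.05, edgeR adjusted p = 2.9e-05). Rpl11 had 554.9, 566.4 and 603 CPM in Malt1_V87R, all above its Malt1_WT libraries. The count of higher members was 21 and the median 0.098 without the third Malt1_V87R library. The count was 22 and 27 without Malt1_WT replicate 2 and 3. In the same fits 3088, 3035 and 2979 of all genes were higher. Of related genes, 12 of 34 biogenesis genes were higher and 3 lower, 10 of 19 TOP translation genes were higher and 2 lower, and 39 of 73 mitochondrial ribosomal proteins were higher and 3 lower. The stalk genes did not pass the test, with -0.0012 ± 0.04 for Rplp0 (edgeR adjusted p = 0.98), 0.06 ± 0.06 for Rplp1 (edgeR adjusted p = 0.42) and 0.05 ± 0.06 for Rplp2 (edgeR adjusted p = 0.47).

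In Malt1_L88D against Malt1_WT 31 members rose and 1 fell (21 large and 10 small subunit genes rose), where 22.8% of all genes were higher and 22.3% lower, with a member median of 0.11. Rpl11 (0.29 ± 0.06, edgeR adjusted p = 0.00037), Rps10 (0.26 ± 0.11, edgeR adjusted p = 0.048) and Rpl36a (0.25 ± 0.07, edgeR adjusted p = 0.0048) rose most. The count of higher members was 14 and 18 without Malt1_WT replicate 2 and 3 and 17 without the second Malt1_L88D library. In the same fits 2837, 2833 and 2858 of all genes were higher, so the share of members called was near that of all genes. Of related genes, 7 of 34 biogenesis genes were higher and 5 lower, 10 of 19 TOP translation genes were higher and 3 lower, and 28 of 73 mitochondrial ribosomal proteins were higher and 3 lower. The comparisons of the mutants with Malt1_WT share its libraries. Mdm2 was lower in Malt1_PD (266 ± 6.08 CPM), Malt1_V87R (178 ± 4.71 CPM) and Malt1_L88D (175 ± 0.695 CPM) than in Malt1_WT (351 ± 6.08 CPM), with edgeR adjusted p = 1.3e-09, 3.7e-19 and 3.1e-19. Myc was lower in Malt1_V87R (-0.27 ± 0.03, edgeR adjusted p = 2.2e-07) and Malt1_L88D (-0.23 ± 0.03, edgeR adjusted p = 3.5e-06) than in Malt1_WT, opposite to its rise in Malt1_PD.

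Malt1_V87R and Malt1_L88D were not told apart. No member was called in either direction by edgeR, as for all 14571 genes (0% in each direction), and 3 members had an unadjusted p under 0.05 against 852 genes over the table (5.85%). DESeq2 called 0 as well. The median log2 fold change was 0.05, and 68 of 76 estimates were above 0. Without the third Malt1_V87R library the median was 0.0020, with 39 estimates above 0 and 37 below. In 18 members every Malt1_V87R library was above every Malt1_L88D library and in 0 below, as in 8.28% and 6.76% of all genes. A p that misses the threshold does not show that the 2 substitutions act alike.

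Paralogue pairs did not move as 1 unit. Rpl22l1 is the paralogue of Rpl22, and the Rpl22 protein represses it in mouse cells. Rpl22 had 395, 381 and 375.5 CPM in Malt1_WT, 467.8, 395.1 and 433.9 CPM in Malt1_PD, 451.3, 460.6 and 495.7 CPM in Malt1_V87R, 457.1, 457.3 and 448.5 CPM in Malt1_L88D, and 495.9, 446.6 and 460.3 CPM in Vector. It was lower in Malt1_WT than in Vector (-0.29 ± 0.05, edgeR adjusted p = 2.9e-05), with every Malt1_WT library below all 12 others, the highest by a narrow margin.

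Rpl22l1 ran the other way. It had 21.9, 18.8 and 19.9 CPM in Malt1_WT, 19.8, 19.1 and 21.5 CPM in Malt1_PD, 15.4, 16.2 and 16.1 CPM in Malt1_V87R, 16.8, 17.1 and 15.6 CPM in Malt1_L88D, and 19.2, 17.6 and 16.4 CPM in Vector. The Malt1_V87R and Malt1_L88D libraries all lay below the Malt1_WT and Malt1_PD libraries, and Vector overlapped both sets. Against Malt1_WT it fell by 0.34 ± 0.08 in Malt1_V87R (edgeR adjusted p = 0.0011) and by 0.29 ± 0.08 in Malt1_L88D (edgeR adjusted p = 0.0062), the only fall of a member in each comparison. In Malt1_WT against Vector it had 0.18 ± 0.08 (edgeR adjusted p = 0.063). Per Rpl22 the ratio was 0.0525 ± 0.003 for Malt1_WT, 0.0467 ± 0.0039 for Malt1_PD, 0.0339 ± 0.0013 for Malt1_V87R and 0.0363 ± 0.0014 for Malt1_L88D, against 0.038 ± 0.0021 for Vector (SD, n = 3 each), so the lowest Malt1_WT and Malt1_PD ratios (0.0493 and 0.0423) were above the highest of the other 3 groups (0.0395).

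**Figure D5:**
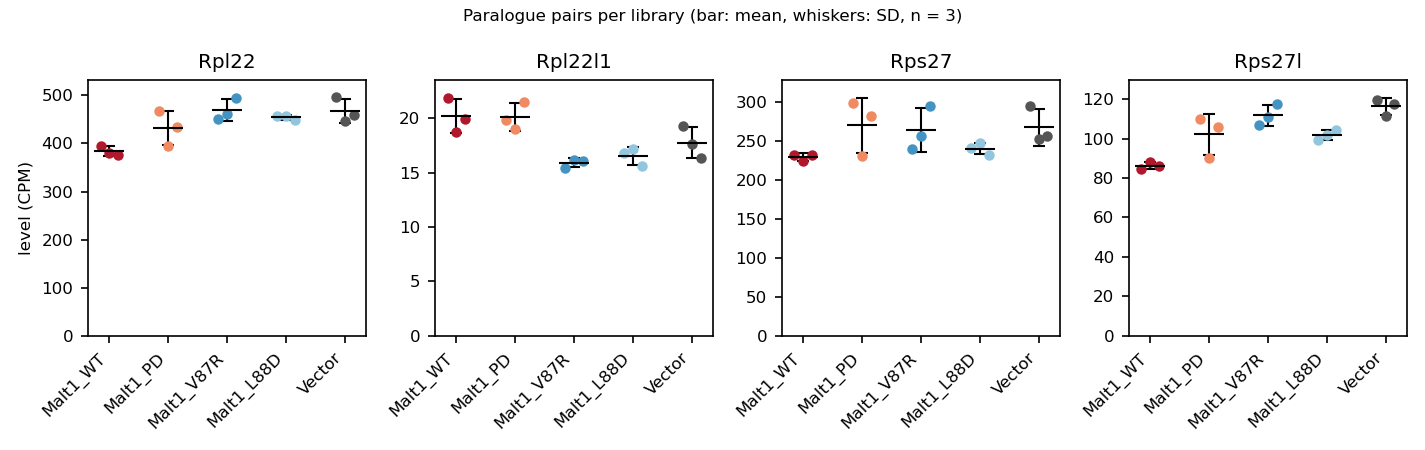
Level (CPM) of Rpl22, Rpl22l1, Rps27 and Rps27l in each library (points) with the group mean (bar) and SD (whiskers, n = 3), on axes from 0. Rpl22 and Rps27l are lowest in Malt1_WT, while Rpl22l1 is at 18.8 CPM or above in every Malt1_WT and Malt1_PD library and at 17.1 CPM or below in every Malt1_V87R and Malt1_L88D library.

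Rps27 had 232.6, 224.1 and 231.8 CPM in Malt1_WT, against 294.8, 252.6 and 255.9 CPM in Vector, and was not called (-0.22 ± 0.10, edgeR adjusted p = 0.075) although the libraries do not overlap. Per Rps27, Rps27l had a ratio of 0.376 ± 0.0154 for Malt1_WT, 0.379 ± 0.0112 for Malt1_PD, 0.426 ± 0.0246 for Malt1_V87R and 0.425 ± 0.0211 for Malt1_L88D, against 0.436 ± 0.0275 for Vector (SD, n = 3 each). Every Malt1_WT and Malt1_PD ratio was at 0.393 or below and every ratio of the other groups at 0.398 or above. The ratios are descriptions, since they were looked at with the levels known. Of the other pairs, Rpl36al, Rpl39l, Rpl3l and Rpl7 were under the level set for the family. Their partners fell in Malt1_WT against Vector: Rpl36a by 0.37 ± 0.07 (edgeR adjusted p = 0.00016), Rpl39 by 0.19 ± 0.08 (edgeR adjusted p = 0.043), Rpl3, which shapes the peptidyl transferase centre, by 0.16 ± 0.04 (edgeR adjusted p = 0.001), and Rpl7l1 by 0.17 ± 0.04 (edgeR adjusted p = 0.00043).

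The 2 well-counted copies of chromosome 1 genes also fell in Malt1_WT. Rpl31-ps8 was 227 ± 4.07 CPM in Malt1_WT and 269 ± 25 CPM in Vector (-0.25 ± 0.06, edgeR adjusted p = 0.00072), and Rpl7-ps7 was 63 ± 0.572 CPM in Malt1_WT and 72.5 ± 2.63 CPM in Vector (-0.21 ± 0.05, edgeR adjusted p = 0.0014). All 300 rows marked -ps, of which 215 had counts, summed to 460.8 ± 17.7 CPM in Malt1_WT and 550.5 ± 53.9 CPM in Vector (SD, n = 3 each).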

How the data were processed

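RNA sequencing of E0771 cells gave 15 libraries in 5 groups of 3. Per the labels' protocols, total RNA was made into stranded libraries and read as paired ends. The authors deposited raw counts per gene symbol. Tools listed in the submitters' processing notes are featureCounts 1.6.3, STAR 2.7.3a and Trim Galore 0.6.0, with GRCm38.p6 as build. Strand setting, annotation release and multi-mapped reads were not stated there, so counts of near-identical or overlapping genes are uncertain.

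The test was edgeR 4.0.16 (R 4.3.3) after filterByExpr and TMM scaling (factors 0.9732 to 1.015). All 15 libraries entered one robust quasi-likelihood fit with a mean for each group, read out as 8 two-sided comparisons, adjusted by Benjamini-Hochberg over 14571 genes at 0.05. CPM used TMM-scaled totals, and the standard error is the log2 fold change divided by the root of F. The test was tried on simulated data. Gene positions and transcript lengths came from GENCODE M21. DESeq2 1.42.0 and limma-voom (limma 3.58.1) were alternatives.

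The members and lists were chosen with earlier results of these data known. Named members were the 3 largest rises and 3 largest falls called in each comparison, and fixed members (the 4 most abundant, the stalk, paralogues and those with roles outside the ribosome). Of other lists, at most the 2 called genes of smallest adjusted p were named per comparison, beside the ribosomal proteins outside the name pattern; some genes are not reported here by name. The pseudogene copies were chosen after their values were seen.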

Additional observations from a re-analysis of the deposited data

How the results depend on the processing

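Under the alternatives of scaling or tool (RLE, upper-quartile, library totals, TMM without the ribosomal protein genes, DESeq2 and limma-voom), the sign of the member median was kept in all 8 comparisons. With 1 library left out it turned in Malt1_PD against Vector, without the second Malt1_PD or the first Vector library. Counts of members moved most where few were called. In Malt1_WT against Vector, 1 member was higher with RLE scaling, with TMM without the ribosomal protein genes and with the replicate block. Of all genes 4067, 4096 and 4261 were higher there. In Malt1_PD against Vector, 0 were higher with upper-quartile scaling, library totals or only the 6 libraries compared (3113, 2872 and 2941 of all genes). The lower ones were 25 with library totals and 3 with only those libraries (3892 and 2740 of all genes). In Malt1_V87R against Vector, the lower ones were 1 with RLE scaling, DESeq2 or only the 6 libraries compared (696, 594 and 603 of all genes). They were 7 with library totals, 5 without the filter on low counts and 11 with the replicate block (910, 539 and 951 of all genes). In Malt1_L88D against Vector they were 8 with upper-quartile scaling and 9 with TMM without the ribosomal protein genes (1082 and 1114 of all genes). They were 29 without the filter, 32 with only the 6 libraries compared and 42 with the replicate block (1059, 1280 and 1504 of all genes). In Malt1_L88D against Malt1_WT 47 were higher with only the 6 libraries compared (3495 of all genes). The cause was not tested.

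Over all genes tested, pairing by replicate number was not seen in the groups other than Malt1_PD. Across 18 same-number pairs the correlation of deviations ran from -0.05 to 0.09, with 0 above 0.1. For the family's sum, the first library was highest and the second lowest in Malt1_WT, Malt1_PD and Vector. The Malt1_V87R and Malt1_L88D libraries had other orders, and whether the numbers mark a shared batch was not tested. The replicate block was fitted to 12 libraries and 6 comparisons, without Malt1_PD, whose columns could be tied to its group but not to single samples.

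With 1 library left out, the counts were 51 to 70 lower and 0 to 1 higher in Malt1_WT against Vector, 0 to 16 lower and 0 to 7 higher in Malt1_PD against Vector, 0 to 11 lower in Malt1_V87R against Vector and 0 to 33 lower in Malt1_L88D against Vector. In these comparisons, in that order, 3459 to 3802, 2728 to 2957, 357 to 823 and 573 to 1344 of all genes were lower. Of all genes 3781 to 4045 were higher in Malt1_WT and 3104 to 3311 in Malt1_PD against Vector. Against Malt1_WT the higher members were 17 to 74 in Malt1_PD, 21 to 44 in Malt1_V87R and 14 to 29 in Malt1_L88D. Over all genes these counts were 1107 to 2085, 2979 to 3135 and 2833 to 2966. The main fit tested 14571 genes. A group left with 2 libraries shares the spread of the others.

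With library totals the mean summed level of Malt1_L88D was 52490 CPM. Without the 4 members of highest level the mean ratio of large to small subunit was 1.29 in Malt1_WT, 1.286 in Malt1_PD, 1.288 in Malt1_V87R, 1.303 in Malt1_L88D and 1.286 in Vector. The log2 fold change of Rpl22l1 in Malt1_PD against Malt1_WT, near 0, turned positive: 0.0022 with limma-voom, 0.018 without the filter, and -0.060 to 0.054 over the fits with 1 library left out. Of 1054 alternative values of named members, 867 kept their call and direction, 154 lost the call, 28 gained one and 5 were reversed. Counts were lowest, and relative counting error therefore widest, for Rps3a2, Rps10 and Rpl22l1.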
